A study of Mus musculus with 24 samples.

Results

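The comparison set brown adipose tissue of mice given antimiR-224 against brown adipose tissue of mice given antimiR-452. AntimiR-224 and antimiR-452 are oligonucleotides with locked nucleic acid (LNA) bases, a modification that tightens binding, and each is complementary to 1 microRNA, miR-224 or miR-452. Mice of the strain C57BL/6 had been injected under the skin 2 times with 25 mg/kg of either inhibitor, or of an LNA oligonucleotide of scrambled sequence (scramblemiR). Age and sex were not given in the sources used here, nor whether each library came from a separate mouse, and every group carried an LNA oligonucleotide, so none was untreated. Of the 24 libraries of poly(A)-selected RNA in the series, from white and brown fat, 8 entered this comparison, 4 under antimiR-224 and 4 under antimiR-452. The 4 brown fat scramblemiR libraries are given beside them. The study's title ties oestrogen and diabetes-related genes to both microRNAs circulating in vesicles, and setting one inhibitor against the other asks which transcripts differ between their effects.

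Genes were joined between the antimiR-224 table and the antimiR-452 table by Ensembl identifier. The antimiR-452 values were rescaled by the ratio of the scramblemiR means that both tables hold, a factor of 0.993. A gene belonged to the comparison where the mean of its antimiR-224 and antimiR-452 values was at least 10 normalized counts, which held for 14560 of 23255 joined genes. The unit is the normalized count, reads per gene divided by a size factor of the library, and it is not corrected for gene length. The deposited columns are means over 4 libraries. Reads per library were recovered from the digits of those means for 14287 of the 14560 genes, and the other 273, nearly all very abundant, have a mean only. Libraries are numbered 1 to 4 in each group by descending size factor and could not be tied to sample titles.

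MicroRNAs are short RNAs that pair through their seed, bases 2 to 8, with sites in messenger RNAs, which lowers the stability or translation of these messages. An LNA inhibitor pairs with the microRNA and blocks it, so that messages with its seed match may rise. Brown fat burns fatty acids to make heat: catecholamines act on adrenergic receptors, cyclic AMP rises, stored triglyceride is broken down, and Ucp1 lets protons back into the mitochondrial matrix without making ATP. Libraries selected on poly(A) tails do not measure mature microRNAs, so inhibition itself was not measured.

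The inhibited microRNAs are shown because each inhibitor's direct targets are defined by them. Sequences are from RefSeq (GRCm38.p6), 5′ to 3′, with the seed in capitals.
mmu-miR-224-5p: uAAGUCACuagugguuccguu
mmu-miR-452-5p: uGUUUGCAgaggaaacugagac
The mature miR-224-5p lies at chrX:72261085-72261105 and miR-452-5p at chrX:72262271-72262292, both on the minus strand. Both are inside an intron of Gabre (chrX:72255999-72274803, minus strand), which encodes a GABA-A receptor subunit, and overlap no exon of it. Their seeds differ, so no 7-base site pairs with both: the seed match is GTGACTT for miR-224-5p and TGCAAAC for miR-452-5p. Gabre itself was barely detected. Its normalized counts were 3.99, 18.4, 5.67 and 7.0 under antimiR-224, 54.4, 19.3, 0.996 and 17.4 under antimiR-452, and 25.9, 19.3, 18 and 5.44 with scramblemiR. The ranges overlapped and an exact two-sided permutation test over the 8 inhibitor libraries gave p = 0.543, where 0.0286 is the smallest p that 4 against 4 allows.

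Libraries within a group differed widely. Recovered reads came to 8226268 to 12897815 per inhibitor library, leaving out the abundant unrecovered genes, and to 16960694 to 20255777 per scramblemiR library. Over all tested genes in the 12 brown fat libraries the first principal component held 56.6% of the variance, with its highest score in library 1 of antimiR-452 and its lowest in library 3 of the same group. The second held 16.7% and set library 1 of antimiR-224 and library 3 of antimiR-452 apart from the other 10. Several results below are therefore also given without library 1 of each inhibitor group, or without these and library 3 of antimiR-452. These choices of libraries were made after the values were seen.

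Judged by the deposited means alone, brown fat looked broadly lower under antimiR-224, and skeletal muscle genes were among those with the lowest ratios. The ratio of means was below 1 for 8807 genes (60.5%) and above 1 for 5753 (39.5%), with a median log2 ratio of -0.07. It was at least 2-fold lower under antimiR-224 for 868 genes (5.96%) and at least 2-fold higher for 76 (0.522%). These means carry no error, and the values per library showed where they came from. Of the 868 lower genes, 828 had values per library. In 806 of these the highest antimiR-452 value was in library 1, and in 779 library 1 alone held most of the antimiR-452 reads. The 2 groups of 4 libraries did not overlap for 7 of the 828, against 0.273% of all tested genes that were lower without overlap. Of the 76 higher genes, 11 did not overlap, against 0.336% of all tested genes. Choosing genes by the ratio of means of these same libraries favours genes without overlap, so nothing is read from either count. Without library 1 of both groups, 435 genes were at least 2-fold lower and 172 at least 2-fold higher.

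**Figure D1:**
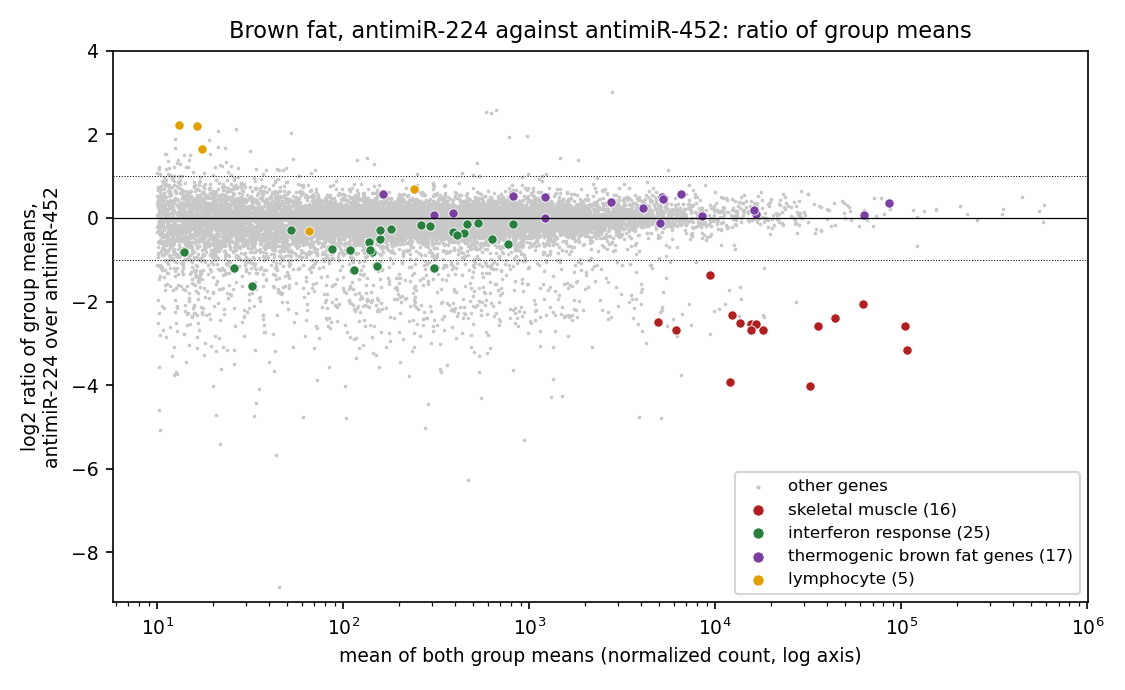
Log2 ratio of the antimiR-224 mean over the rescaled antimiR-452 mean (vertical axis) against the mean of both (horizontal log axis, normalized counts) for the 14560 genes, each a point; dotted lines mark 2-fold. All 16 skeletal muscle markers and all 25 interferon response genes lie below 0, and 15 of 17 thermogenic genes lie above it.

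Skeletal muscle genes were lower under antimiR-224 in the means, while their values per library varied widely within every group. All 16 markers of the list, which encode contractile and metabolic proteins of muscle fibres, were over 2-fold lower in the ratio of means, with a median log2 ratio of -2.56. Of the 16 only Myh2, a fast myosin heavy chain gene, could be tested per library, at 6002, 501, 14.7 and 156 under antimiR-224 and 41744, 29.9, 1.99 and 990 under antimiR-452. Its ratio of means was -2.68 and its log2 difference per library 0.24 ± 2.86 (SE), so the 2 measures differ in sign. Ryr1, the calcium release channel of the muscle reticulum, which belongs to the creatine and calcium cycling list, stood at 17029, 403, 109 and 85.1 under antimiR-224 and at 85123, 803, 9.96 and 4271 under antimiR-452. In scramblemiR it stood at 41374, 39336, 18 and 23.9. High and low libraries thus occurred in all 3 groups, and the log2 difference of Ryr1 was -1.41 ± 2.64 (SE).

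The same pattern held over 12 muscle genes with recovered reads, a list chosen after the values were seen. Their geometric mean was 2352, 68.7, 18.7 and 18.9 under antimiR-224 and 11455, 104, 2.67 and 604 under antimiR-452. With scramblemiR it was 5676, 4418, 4.46 and 3.72. These values spanned over 3 orders of magnitude within the antimiR-452 group and within the controls. Per library, 11 of the 12 genes were lower under antimiR-224 (53.4% of all genes), with a median log2 difference of -1.39. Without library 1 of both groups 11 of 12 were lower (51.8% of all genes), with a median of -1.18. Without library 3 of antimiR-452 in addition 12 of 12 were lower (47.0% of all genes), with a median of -3.53. The choice of this list makes these counts a description. In bulk tissue, more cells of a type and more RNA per cell cannot be told apart. The largest lower ratios over all genes with a mean of at least 50 included further muscle genes. Mstn, encoding myostatin, a secreted inhibitor of muscle growth, had the lowest at -6.27, with 3669 normalized counts in library 1 of antimiR-452 and at most 32.7 in any antimiR-224 library. Ppp1r3a, the muscle glycogen-targeting subunit of protein phosphatase 1, followed at -5.32, with 6908 in that library. Aqp4, a water channel, followed at -5.03, with 2030 there. In libraries 2 to 4 of antimiR-452 Mstn was at 7.71, 0 and 30.8, inside or below the antimiR-224 range of 4.54 to 32.7.

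Genes of slow fibres, which contract slowly and oxidise fuel, had high ratios of means. Among genes with a mean of at least 50, the 7 highest ratios belonged to 6 of them and to the antibody gene Igkc (2.04). The 6 were grouped for these ratios after the values were seen, so their shared direction in the means is a description. They are Myh7, the slow myosin heavy chain, at a log2 ratio of means of 3.01, the slow troponin C gene Tnnc1 at 2.59, the slow light chain gene Myl3 at 2.54, the slow troponin I gene Tnni1 at 2.52, the slow troponin T gene Tnnt1 at 1.96 and Myl2 at 1.93. Myh7 stood at 19782, 1.67, 6.81 and 32.7 under antimiR-224 and at 908, 53.0, 0.996 and 1502 under antimiR-452. In library 1 of each group Myh2 had the reverse order. In the controls Myh7 was at 25908 in library 1 and 2731 in library 2, where Myh2 was at 15251 and 20060. Over the 6 slow fibre genes the ratio of means and the log2 difference per library had opposite signs: the median was 2.53 for the means and -0.32 for the library values, and library 1 of antimiR-224 held most of the reads. The values of both groups overlapped for all 6.

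**Figure D2:**
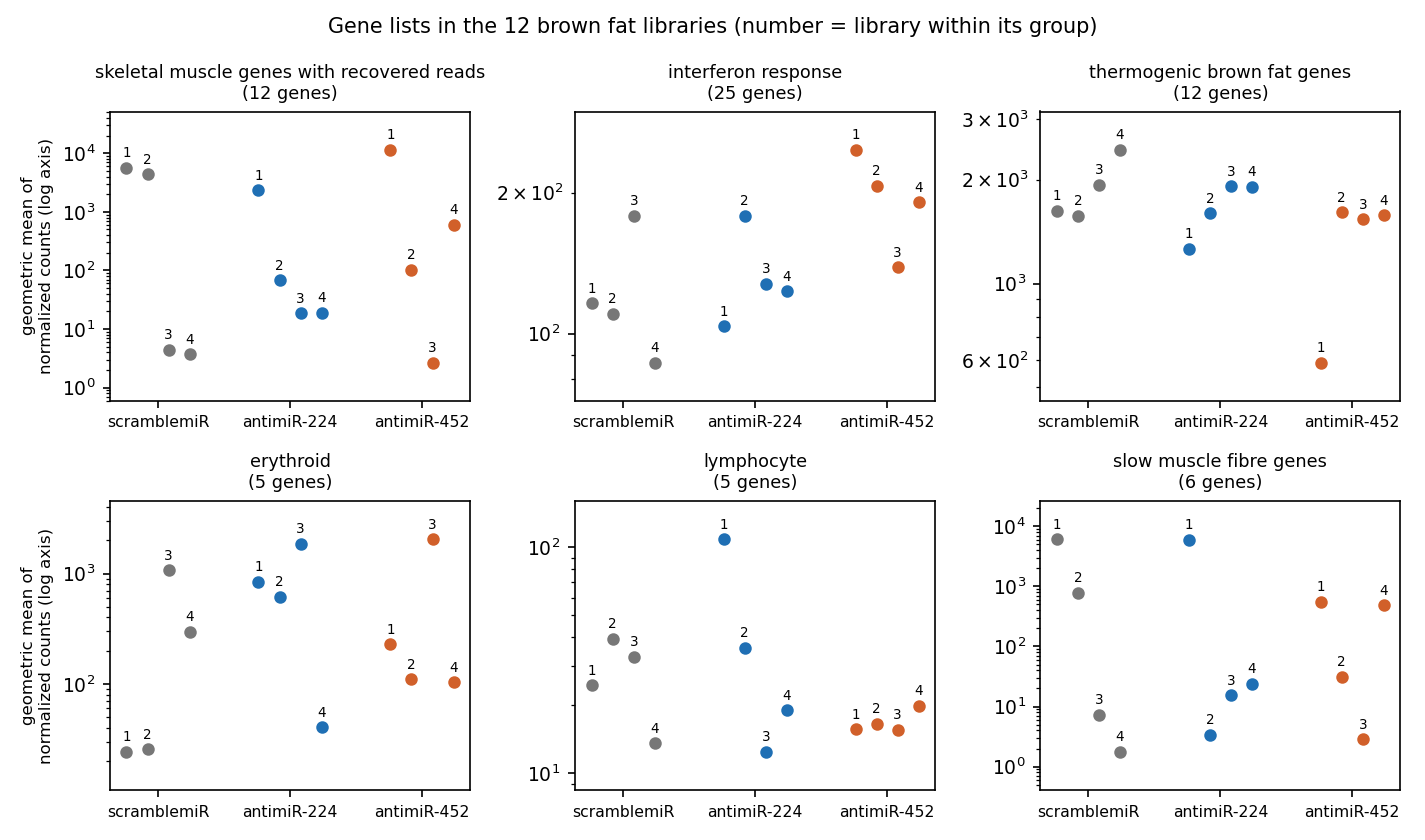
Geometric mean of normalized counts (log axes) of 6 gene lists in each of the 12 brown fat libraries, in grey for scramblemiR, blue for antimiR-224 and orange for antimiR-452; numbers are libraries. Muscle genes range from 2.67 to 11455 within antimiR-452, interferon response genes from 104 to 247 across both inhibitors, and thermogenic genes are lowest, at 590, in library 1 of antimiR-452.

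Tested per library, no gene passed the adjusted threshold. The limma fit called 0 of 14287 genes (0%) at an adjusted p of 0.05, and the smallest adjusted p was 1, which holds for every gene named below unless another is given. At an unadjusted p under 0.05 there were 60 genes (0.420%), 32 higher under antimiR-224 (0.224%) and 28 lower (0.196%). Without library 1 of both groups and library 3 of antimiR-452, 1 gene passed: Mylk4, a kinase of muscle myosin light chains, at 3624, 63.5, 63.5 and 38.5 under antimiR-224 and 28631, 442, 0.996 and 1232 under antimiR-452 in all 8 libraries (log2 -3.75 ± 0.42 in the 5 kept, limma adjusted p = 0.019). On simulated libraries of this size, in which no library stood apart, the same fit called 81 of 100 genes changed 4-fold and 38 of 100 changed 2-fold. In that simulation 5.04% of unchanged genes had an unadjusted p under 0.05, against 0.420% of all tested genes here. The p-values thus ran high in these libraries, so the simulated call rates do not carry over. The absence of calls does not show that the groups are alike. The log2 differences were lower for 53.4% of tested genes and higher for 46.6%. The genes described next are the 10 with the smallest unadjusted p in each direction among genes with a mean of at least 50. They lead a list in which nothing passed, and their values are given as a description. For 4 of the 20 the log2 difference shrank by over 1.5 times when libraries were left out. Without library 1 of both groups Ifit3 went from -0.79 to -0.45. Without library 3 of antimiR-452 in addition, Itpr1 went from 0.88 to 0.38, Cdh2 from 1.19 to 0.63 and Angel1 from -0.91 to -0.55.

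Among the 10 leading genes with higher values under antimiR-224, 5 did not overlap between groups, where 0.336% of all tested genes were higher without overlap. Choosing by the smallest p favours genes without overlap, so nothing is read from that count. Zfp36l2 (ENSMUSG00000045817, chr17:84183931-84187947), which encodes an RNA-binding protein that speeds decay of messages with AU-rich elements, led them. Its normalized counts were 2236, 3230, 1539 and 3605 under antimiR-224 (2653 ± 941, SD, n = 4) and 629, 1057, 1455 and 909 under antimiR-452 (1012 ± 344). With scramblemiR they were 2041, 1432, 2745 and 4690. Every antimiR-224 library lay above every antimiR-452 library and the control range covered the antimiR-224 values, with a log2 difference of 1.38 ± 0.35 (SE). In the authors' deposited tables, the log2 ratio of Zfp36l2 to scramblemiR was -1.43 for antimiR-452 (p = 0.0165) and -0.04 for antimiR-224 (p = 0.996), and both share these controls.

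Dusp4 (chr8:34807297-34819894), a phosphatase that switches off MAP kinases in the nucleus, showed the same arrangement of groups. It stood at 438, 754, 557 and 1247 under antimiR-224, at 142, 272, 562 and 233 under antimiR-452, and at 729, 432, 645 and 1415 with scramblemiR. Only library 3 of antimiR-452 reached the antimiR-224 range, and the log2 difference was 1.37 ± 0.45. In the authors' deposited tables Dusp4 was at -1.42 for antimiR-452 (p = 0.0252) and at -0.10 for antimiR-224 (p = 0.801) against scramblemiR. Ppp1r3g, a glycogen-targeting subunit of protein phosphatase 1 that takes part in glycogen synthesis, had the largest difference of the 20, 1.75 ± 0.68. Its counts were 109, 215, 185 and 181 under antimiR-224, 9.36, 73.3, 102 and 79.0 under antimiR-452, and 76.7, 46.4, 61.4 and 151 with scramblemiR. Here the control range reached from the antimiR-452 values into the antimiR-224 values, and the groups of both inhibitors did not overlap.

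The rest of the higher genes follow. Gpam (chr19:55067268-55127238), the mitochondrial acyltransferase that starts triglyceride synthesis, stood at 6750, 5345, 4023 and 6836 under antimiR-224 and at 5242, 2486, 2952 and 3204 under antimiR-452. Controls were at 9748, 5366, 5735 and 11691, above all antimiR-452 values, and the log2 difference between inhibitors was 0.75 ± 0.31. Itpr1, the inositol trisphosphate receptor that releases calcium from the reticulum, was at 2573, 2923, 2046 and 3683 against 828, 2247, 1297 and 2059 (0.88). Pon1, a lactonase carried on high-density lipoprotein, was at 406, 591, 695 and 456 against 204, 384, 258 and 349, without overlap (0.85). Cdh2, N-cadherin, and the zinc finger gene Zfp664 had log2 differences of 1.19 and 0.54. Gm11295 and Gm16439, with 1.51 and 0.73, are annotated as processed pseudogenes, whose reads cannot be told from those of their parent genes by the deposited counts.

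Lower values under antimiR-224 were led by Irf7 (ENSMUSG00000025498, chr7:141262706-141266481), the transcription factor that amplifies type I interferon production. Its normalized counts were 260, 156, 158 and 173 under antimiR-224 (187 ± 49.6, SD, n = 4) and 607, 387, 424 and 295 under antimiR-452 (428 ± 131). Controls were at 180, 188, 438 and 134. All antimiR-452 libraries lay above all antimiR-224 libraries, while 1 control library was as high as the antimiR-452 group; the log2 difference was -1.18 ± 0.29 (SE). In the authors' deposited tables Irf7 was at 0.87 for antimiR-452 (p = 0.0765) and at -0.33 for antimiR-224 (p = 0.578) against scramblemiR.

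Of the other lower genes, Ifit3 belongs with Irf7 to the interferon response list and is given below. The rest shared no fixed list. Slc7a10 (chr7:35186385-35201114), a transporter of small neutral amino acids found on white adipocytes, stood at 205, 181, 268 and 239 under antimiR-224 and at 733, 330, 463 and 421 under antimiR-452, with controls at 687, 174, 183 and 357. The inhibitor groups did not overlap (-1.07 ± 0.28). Ccnd2, encoding cyclin D2, did not overlap either, at 602, 534, 504 and 490 against 1156, 690, 797 and 751 (-0.65). Cdsn, encoding corneodesmosin, an adhesion protein best known in skin, had the largest lower difference of the 20 at -1.66 ± 0.51, with 98.2, 38.4, 25.0 and 49.0 against 125, 73.3, 247 and 217. One antimiR-452 library, library 2, lay inside the antimiR-224 range. Lgals3bp, which encodes a secreted galectin-3 binding glycoprotein, had -0.74 and Arhgef5 -0.83, with overlap in both. Fam189a2, Angel1 and D11Wsu47e had -0.91, -0.91 and -0.64, and of these only D11Wsu47e did not overlap.

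**Figure D3:**
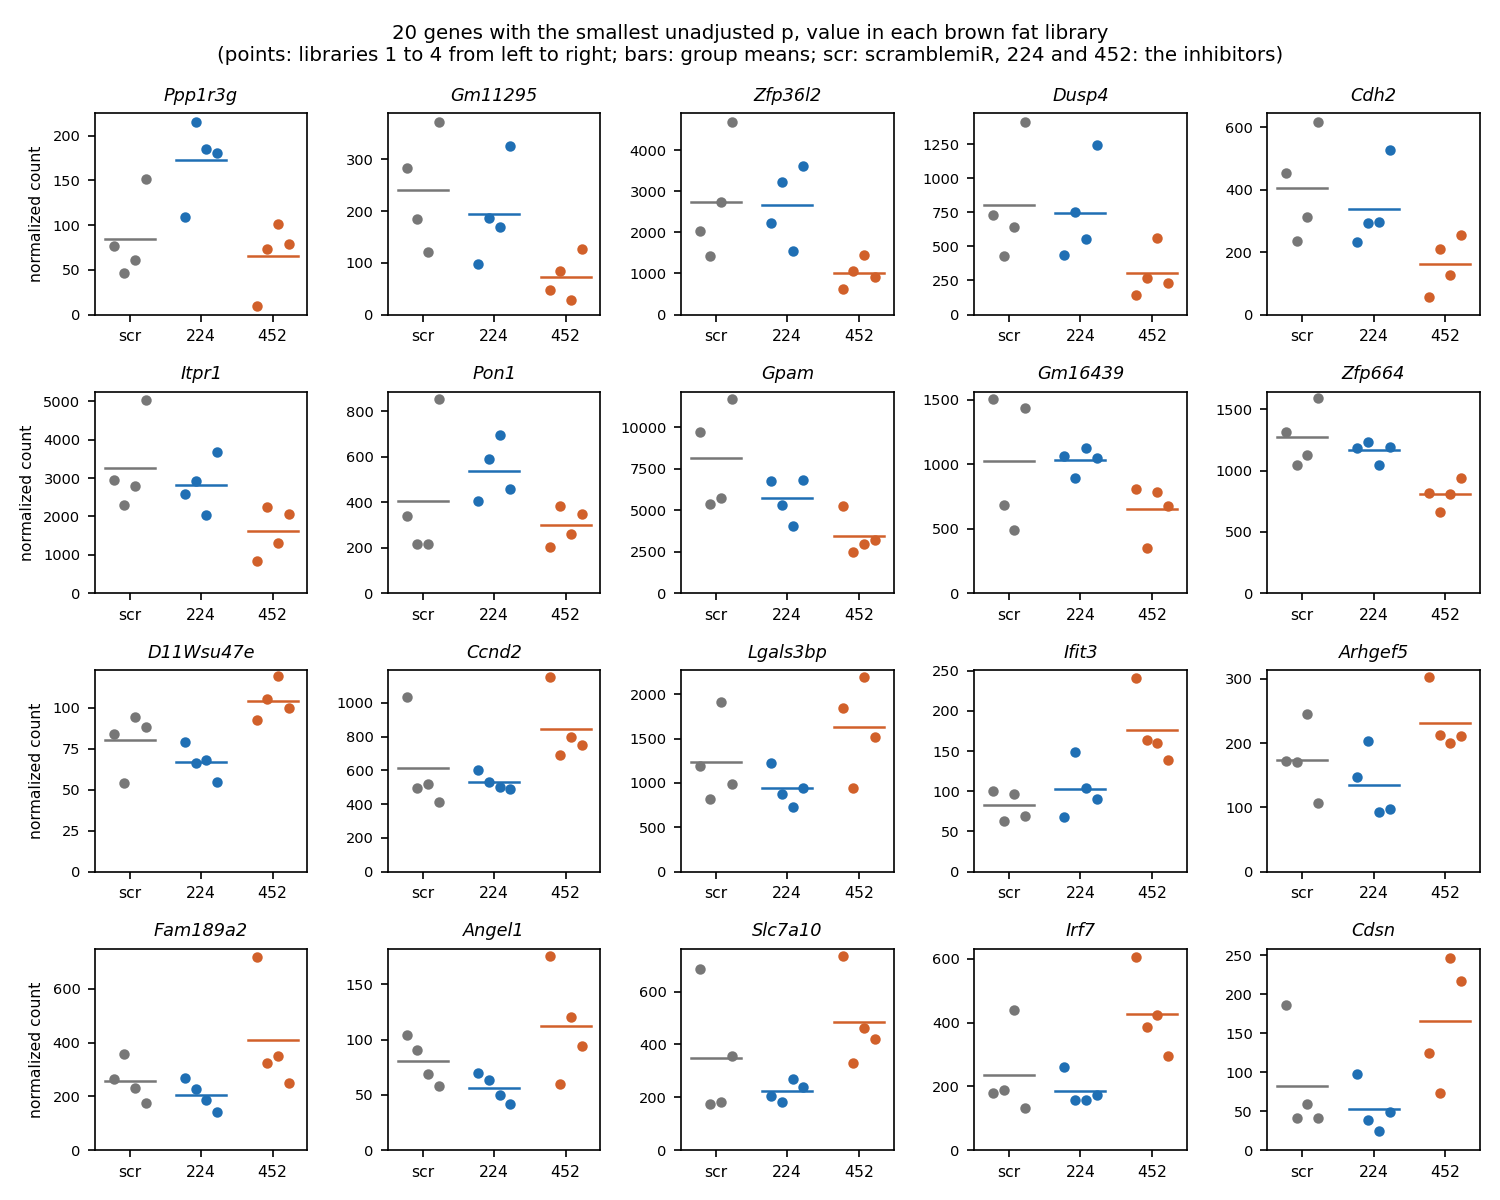
Normalized count of the 20 leading genes in each brown fat library (points, libraries 1 to 4 from left to right; bars are group means; linear axes from 0), for scramblemiR (scr), antimiR-224 and antimiR-452 (labelled by their numbers). For Zfp36l2 and Irf7 all 4 libraries of one inhibitor lie beyond all 4 of the other, and none of the 20 passed the adjusted threshold.

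Interferon response genes had lower values under antimiR-224 than under antimiR-452 throughout the list. These genes are switched on by type I interferon through the factor complex ISGF3 and encode antiviral effectors and their regulators. All 25 tested members were lower, with a median log2 difference of -0.56, where 53.4% of all tested genes were lower with a median of -0.02. At an unadjusted p under 0.05 were 3 of the 25, against 0.196% of all tested genes in that direction, and 0 passed the adjusted threshold. The members are known to vary together, so their count is not that of independent genes. Their geometric mean was 104, 179, 128 and 123 under antimiR-224 and 247, 207, 139 and 191 under antimiR-452, and 116, 110, 179 and 86.7 with scramblemiR. The antimiR-452 libraries thus tended to be high and both inhibitors' ranges overlapped. Leaving out library 1 of both groups, 21 of 25 were lower (51.8% of all genes), with a median of -0.36, and leaving out library 3 of antimiR-452 in addition 25 of 25 (47.0% of all genes), with a median of -0.45.

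Beside Irf7, other members of the list are given with their values. Ifit3 (chr19:34583531-34588731), an antiviral protein of the tetratricopeptide family, stood at 67.9, 150, 104 and 91.0 under antimiR-224, 242, 164, 160 and 139 under antimiR-452, and 101, 62.9, 96.3 and 69.6 with scramblemiR. Only library 2 of antimiR-224 overlapped the antimiR-452 range (-0.79 ± 0.32). Usp18, which removes the ubiquitin-like Isg15 from proteins and dampens interferon signalling, was at 93.4, 60.2, 56.7 and 50.2 against 145, 98.3, 116 and 75.9 (-0.73). Isg15 itself was at 106, 80.2, 95.3 and 39.7 against 115, 128, 226 and 79.0 (-0.75). Rtp4, another interferon-induced gene, did not overlap, at most 130 under antimiR-224 and at least 139 under antimiR-452 (-0.57). Antigen presentation genes of MHC class II were lower in 6 of 7, with a median of -0.35 and 0 at p under 0.05. Macrophages also express such genes, and their markers had a geometric mean of 216, 76.7, 71.5 and 178 under antimiR-224 and 313, 70.7, 104 and 112 under antimiR-452, with a median difference of 0.02 over 12 genes. Their part in the result was not tested.

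Promoters of 2 of these genes are printed because the list's members had one sign and many are bound through the interferon-stimulated response element, of which the motif searched is a simple form. The windows span 250 bases before to 50 after the RefSeq start (GRCm38.p6), 5′ to 3′ on the gene's strand, with each match to GAAA and GAAA parted by any 2 bases, on either strand, in capitals (overlapping matches merge).
Ifit3, chr19:34583279-34583578, plus strand: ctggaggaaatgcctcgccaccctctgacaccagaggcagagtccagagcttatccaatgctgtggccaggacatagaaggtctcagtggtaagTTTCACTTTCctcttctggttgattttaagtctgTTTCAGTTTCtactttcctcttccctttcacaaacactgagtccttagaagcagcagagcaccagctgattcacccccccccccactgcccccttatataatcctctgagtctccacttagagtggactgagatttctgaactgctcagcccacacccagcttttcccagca
Isg15, chr4:156200769-156201068, minus strand: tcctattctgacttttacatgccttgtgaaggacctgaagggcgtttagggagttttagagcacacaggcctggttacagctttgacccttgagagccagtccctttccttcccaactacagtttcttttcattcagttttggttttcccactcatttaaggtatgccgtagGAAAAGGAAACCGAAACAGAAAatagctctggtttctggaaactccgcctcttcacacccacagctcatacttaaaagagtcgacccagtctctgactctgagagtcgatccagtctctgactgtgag
The Ifit3 window holds 2 matches and the Isg15 window 3. Both printed windows are thus among those with a match, and the window of Irf7, the leading gene of the list, holds 0. The motif occurred in the windows of 13 of the 20 interferon genes with a promoter entry (65%), of 371 of 10314 genes of the comparison (3.60%) and of 1131 of 32851 windows in all (3.44%). The list is made of genes known to respond to interferon, so a high share of this motif was given by its choice. That share says nothing about the inhibitors. A match is a description of letters and not a measured site.

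White fat of the same treatments showed the opposite order for this list. White fat libraries were fitted together with brown fat ones over 16141 genes, and the difference between depots was tested as an interaction, for which 0 genes (0%) passed the adjusted threshold and 169 (1.05%) had an unadjusted p under 0.05. All 26 interferon genes of that fit were lower under antimiR-224 in brown fat (median -0.56) and all 26 higher in white fat (median 0.62), and 7 of the 26 had an interaction p under 0.05. For Irf7 the brown difference minus the white one was -1.71 ± 0.55 (SE). The white fat values rested on 2 libraries. The geometric mean of the 26 genes there was 300, 316, 611 and 1561 under antimiR-224 and 396, 280, 335 and 360 under antimiR-452, with white fat controls between 283 and 430. Irf7 was at 3040 in library 4 of antimiR-224 in white fat and at 602 to 1048 in the other 7 inhibitor libraries. Library names in the file headers share some numbers between depots, 2 of 4 for antimiR-224, 3 of 4 for antimiR-452 and 2 of 4 for scramblemiR. Whether a shared number is a shared mouse is not stated, and recovered libraries could not be tied to these names, so the interaction fit took the depots as independent.

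Thermogenic brown fat genes were mostly higher under antimiR-224, and 1 antimiR-452 library held the low values. By the ratio of means 15 of 17 were higher (background 39.5%), with a median log2 ratio of 0.25. Ucp1 had a mean of 96156 under antimiR-224 and 74456 under antimiR-452, a log2 ratio of 0.37, and its values per inhibitor library could not be recovered. In the scramblemiR libraries it was at 43938, 68550, 130760 and 103460, a spread wider than the difference of the inhibitor means. Of the 12 members tested per library, 11 were higher, with a median of 0.45 and 0 at p under 0.05. Their geometric mean was 1261, 1600, 1915 and 1909 under antimiR-224 and 590, 1611, 1534 and 1577 under antimiR-452. Library 1 of antimiR-452, which also had the most muscle RNA, stood alone at the bottom, and the other 3 lay inside the antimiR-224 range.

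Single thermogenic genes repeated that arrangement. Otop1, a proton channel found in brown fat, was at 5470, 5693, 7114 and 5866 under antimiR-224 and at 754, 4713, 7017 and 5144 under antimiR-452. Pank1, a kinase of coenzyme A synthesis, was at 6016, 7439, 9305 and 8784 against 2068, 6306, 6029 and 6672 (0.70). Elovl3, a fatty acid elongase induced by cold, was at 2243, 1651, 4731 and 3763 against 157, 2726, 4385 and 2318. For all 3 the lowest value was library 1 of antimiR-452. Dio2, which activates thyroid hormone, was at 1674, 2962, 11445 and 8152 against 975, 6592, 4341 and 5107, and varied within antimiR-224 by more than between groups. The receptor gene Adrb3 (0.26) and the coactivator gene Ppargc1a (0.07) had differences smaller than their standard errors of 0.46 and 0.34. When library 1 of both groups was left out, 10 of 12 were higher (48.2% of all genes) with a median of 0.22, and without library 3 of antimiR-452 in addition 8 of 12 (53.0% of all genes) with a median of 0.23.

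Some fuel metabolism lists were mostly higher by means under antimiR-224, where 39.5% of all genes were higher, and others were not. Of 18 fatty acid synthesis genes 12 were higher under antimiR-224 by means, with a median of 0.13, and Acly, which makes cytosolic acetyl-CoA, had the highest ratio of all genes without values per library, at 35068 against 22451 (0.64). Scd1, a desaturase, was at 648880 against 520340 and Fasn, fatty acid synthase, at 360370 against 335340. Per library 9 of 10 tested synthesis genes were higher, without library 1 of both groups 2 of 10, and without library 3 of antimiR-452 in addition 6 of 10, so the count turned with the libraries used. Of 20 fatty acid oxidation genes 17 were higher by means (median 0.22), and of 21 citric acid cycle genes 19 (median 0.23). Only 3 and 2 of these could be tested. Of 14 triglyceride assembly genes 11 were higher (median 0.16), among them Gk, glycerol kinase, at 1679, 5218, 8572 and 6525 against 1004, 6346, 1379 and 3417 (1.01), and 13 lipolysis and droplet coat genes had a median of 0.06. Cholesterol synthesis and uptake genes were higher in 19 of 23 tested (median 0.26) and in 12 of 23 without library 1 of both groups. Without library 3 of antimiR-452 in addition they were higher in 18 of 23 (median 0.14). Fdft1, squalene synthase, at 2922, 2843, 3306 and 4067 against 1148, 2294, 5121 and 2693, shows the spread. By means, where 60.5% of all genes were lower, genes of oxidative phosphorylation were lower in 29 of 50 with a median of -0.01. Mitochondrial ribosomal proteins were lower by means in 15 of 26 with a median of -0.02. Per library 16 of 24 tested oxidative phosphorylation genes were higher, without library 1 of both groups 6, and without library 3 of antimiR-452 in addition 18. For the ribosomal proteins these counts were 18, 6 and 21 of 26, so both lists turned with the libraries used.

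With all libraries, insulin signalling genes were evenly split, with 10 of 22 higher by means and 11 of 21 per library (median 0.02). Without library 1 of both groups 13 of 21 were higher (48.2% of all genes), with a median of 0.25. Without library 3 of antimiR-452 in addition 14 of 21 were higher (53.0% of all genes), with a median of 0.15. Irs2, an adaptor that passes the signal from the insulin receptor, was at 1363, 998, 1223 and 1869 under antimiR-224 and at 1296, 813, 896 and 771 under antimiR-452, with overlap (0.52 ± 0.27). Both inhibitor groups lay mostly below the controls at 3341, 1850, 5087 and 3531. In the authors' deposited tables Irs2 was at -1.34 (p = 0.00146) for antimiR-224 and at -1.87 (p = 0.000599) for antimiR-452 against these shared controls, each with an adjusted p of 1. Slc2a4, the insulin-regulated glucose transporter GLUT4, had means of 10337 and 11156 and a log2 ratio of -0.11. Pde3b, which breaks down cyclic AMP in response to insulin, was at 2836, 8618, 8624 and 10777 against 2663, 6083, 2495 and 9557 (0.64). Glycolysis genes were lower in 12 of 19 by means, among them Aldoa at 93336 against 147990, a gene also abundant in muscle. Adrenergic receptor and cyclic AMP genes were higher in 14 of 17 tested, with a median of 0.26, and in 12 of 17 without library 1 of both groups. Without library 3 of antimiR-452 in addition they were higher in 10 of 17 (median 0.13). Of the adipokines 5 of 8 tested were higher, and of the adipocyte transcription factors 7 of 13, where Pparg, the main regulator of adipocytes, was at 4602, 5696, 4804 and 4296 against 1043, 3927, 4708 and 4492.

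Regulatory and stress lists had median log2 differences per library between -0.15 and 0.17, beside -0.02 for all tested genes. The core clock genes were lower in 11 of 18 (median -0.10), immediate early genes in 13 of 21 (-0.09) and glucocorticoid-induced genes in 8 of 12 (-0.07). Unfolded protein response genes were higher in 12 of 20 (0.09), steroid receptor genes in 7 of 13 (0.06) and cell cycle genes in 7 of 11 (0.15). MicroRNA pathway genes were lower in 10 of 13 (-0.14), with the GW182 protein gene Tnrc6a at 791, 1611, 1254 and 1201 against 1429, 2041, 725 and 1481. Collagen and matrix genes were lower in 19 of 25 (-0.15) and genes of TGF-beta signalling in 11 of 20 (-0.07). Without library 1 of both groups and library 3 of antimiR-452, collagen genes were higher in 20 of 25, with a median of 0.19. Fatty acid uptake genes were higher in 7 of 10 (0.17), and creatine and calcium cycling genes lower in 6 of 9 (-0.14). Without library 1 of both groups the median became 0.32 for the unfolded protein response, 0.22 for TGF-beta signalling, 0.09 for the microRNA pathway and -0.28 for fatty acid uptake. By means collagen genes were lower in 22 of 27 (-0.33), TGF-beta genes in 14 of 20 (-0.25) and creatine and calcium genes in 7 of 10 (-0.54). None of these lists held a gene at an unadjusted p under 0.05. Nr4a1, an orphan nuclear receptor of the immediate early list, had a tight antimiR-224 group at 1932, 1745, 1704 and 1561 against 5928, 604, 1227 and 835. Its log2 ratio of means was -0.31 and its log2 difference per library 0.32, which became 0.97 without library 1 of both groups.

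**Figure D4:**
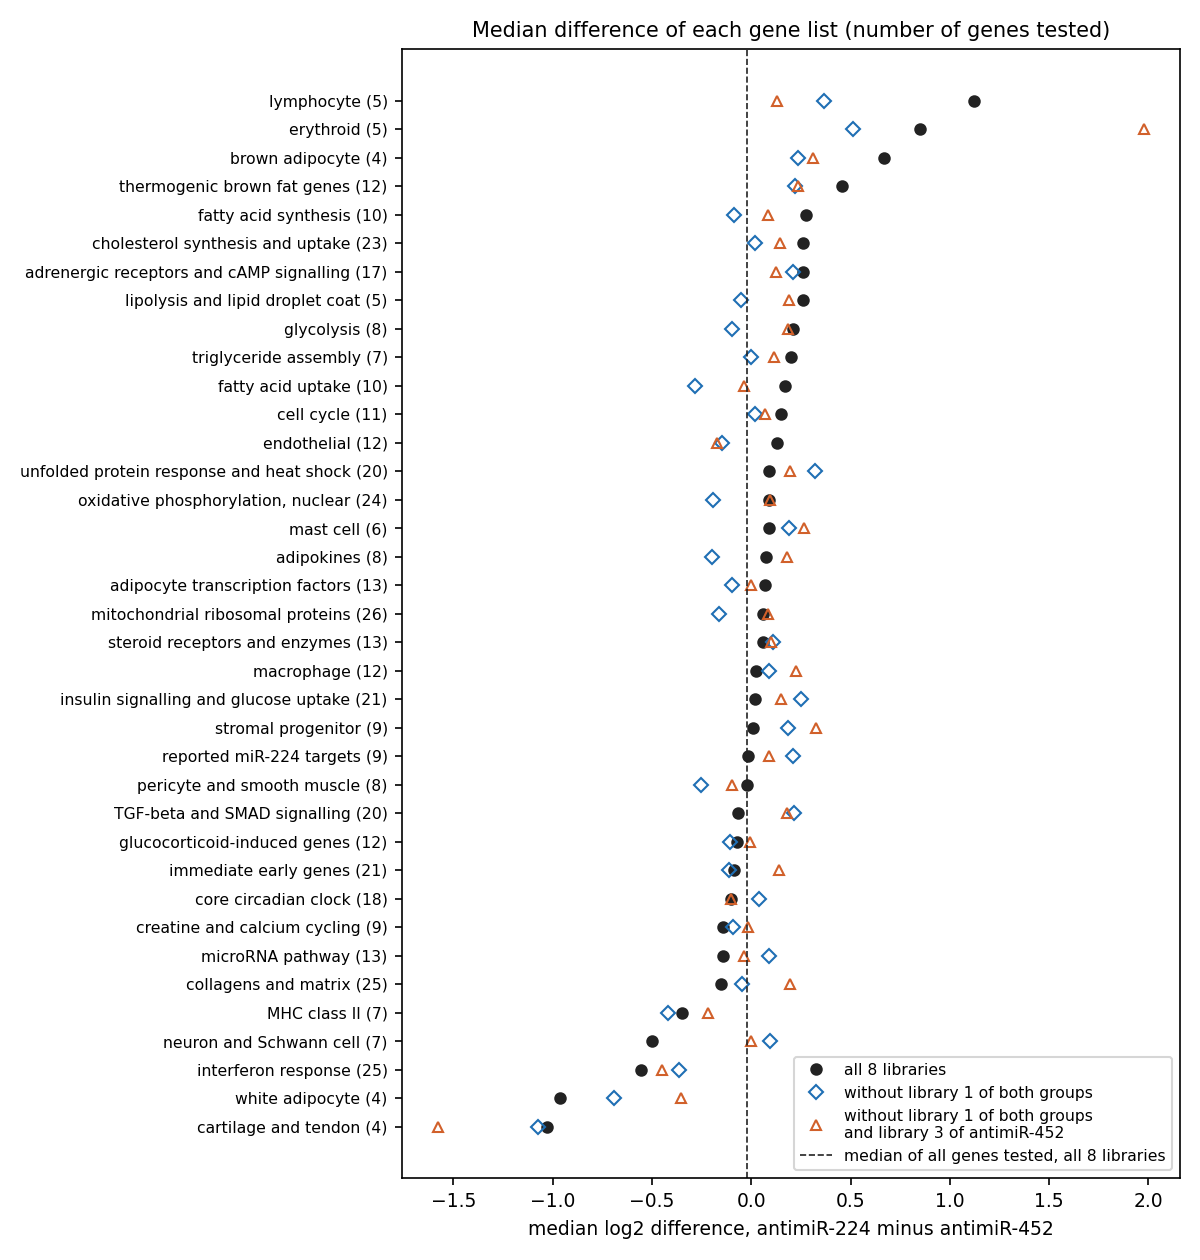
Median log2 difference, antimiR-224 minus antimiR-452, of each list with at least 4 tested genes, with all 8 libraries (dots), without library 1 of both groups (diamonds) and without library 3 of antimiR-452 in addition (triangles); the dashed line is the median of all tested genes, -0.02. Interferon response genes lie left of 0 in all 3 settings (-0.56, -0.36 and -0.45), while fatty acid synthesis moves from 0.28 to -0.09 and collagens from -0.15 to 0.19.

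Markers of other cell types varied widely between libraries of a group. Brown adipocyte markers were present in all groups, with all 8 higher by means under antimiR-224 (median 0.37). White adipocyte markers were low, and Nnat, neuronatin, was at 147, 40.9, 29.5 and 74.6 against 2023, 76.2, 193 and 75.9. Cartilage and tendon markers stood at 130, 2.22, 0.992 and 6.68 under antimiR-224 and at 137, 12.5, 3.81 and 13.5 under antimiR-452, high in the same libraries as muscle. Cilp, a cartilage matrix protein, was at 684, 0, 0 and 11.7 against 886, 68.4, 1.99 and 32.8, with controls at 1129, 185, 22.2 and 2.17. Its log2 difference was -2.37 ± 2.31 (SE) with all 8 libraries, -3.04 ± 1.36 without library 1 of both groups and -4.38 ± 1.06 without library 3 of antimiR-452 in addition. Leaving out 1 library at a time, it ran from -4.42 without library 1 of antimiR-224 to -0.99 without library 1 of antimiR-452, and it passed the adjusted threshold in none of these settings. Red cell genes had another order, with a geometric mean of 843, 619, 1869 and 40.4 against 228, 110, 2056 and 104, highest in library 3 of each inhibitor group. Stromal progenitor markers were at 906 in library 1 of antimiR-452 and at 158 to 301 or 567 in the other inhibitor libraries, and mast cell markers at 131 there and 93.3 in library 1 of antimiR-224. Endothelial markers were higher in 11 of 12 and, without library 1 of both groups, in 2 of 12. The part of these cells in the results was not tested.

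Of 13 lymphocyte markers listed, 5 reached the minimum mean of 10, and 4 of these were higher under antimiR-224 in the group means. The 5 had a median log2 ratio of 1.64. Their geometric mean was 109, 36.0, 12.5 and 19.0 under antimiR-224 and 15.7, 16.6, 15.6 and 19.9 under antimiR-452. Summed over all 13 markers, the group means came to 520 under antimiR-224, 303 under antimiR-452 and 364 with scramblemiR. Library 1 of antimiR-224 was the highest. Of the 5, Cd4 and Cd79b were high there, with the helper T cell coreceptor gene Cd4 at 74.2, 15.9, 6.81 and 10.5 against 4.25, 4.82, 7.97 and 6.16, and the B cell receptor component Cd79b at 63.1, 16.7, 4.54 and 2.33 against 3.40, 3.86, 3.98 and 7.18. Ptprc, the pan-leukocyte gene of CD45 and also a member, was not: it stood at 51.1, 82.7, 30.6 and 68.8 against 134, 80.0, 11 and 65.7, with a ratio of means of -0.32 and a log2 difference of 0.03. Of the antibody genes, Ighm was at 787, 171, 97.5 and 131 against 413, 68.4, 148 and 99.6, and Igkc at 292, 34.3, 6.81 and 4.67 against 8.51, 4.82, 64.7 and 4.11. Igkc was chosen for its ratio of means after its values were seen. Leaving out library 1 of each group, the median log2 difference of the list went from 1.12 to 0.37. Cd4 and Cd79b were below 10 in every antimiR-452 library, so they passed the minimum mean of 10 only through their antimiR-224 values. That filter favours higher ratios, so nothing is read from the medians of this list.

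Genes with a seed match for either microRNA had medians close to that of other genes. Where antimiR-224 frees messages that miR-224 holds down, those with GTGACTT in the 3′ UTR would lie higher than other genes in this comparison, and those with TGCAAAC would lie lower. Of 12299 tested genes with an annotated 3′ UTR, 1537 had a match to miR-224-5p and none to miR-452-5p, and their median log2 difference was -0.01. For the 953 with a match to miR-452-5p alone it was -0.01, for the 338 with both -0.01, and for the 9471 with neither -0.03. Genes without a match have shorter 3′ UTRs (median 942 bases, against 2270 and 2322), and among genes with the longest 3′ UTRs the 3 medians were -0.00, -0.00 and -0.01. At an unadjusted p under 0.05 and higher were 4 of the 1537, and lower were 2 of the 953. Over all 12299 genes 23 were higher and 28 lower at that threshold, and over the 9471 with neither match 18 and 25.

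A match to miR-224-5p occurred in 15.2% of these genes and one to miR-452-5p in 10.5%. Of the 10 leading higher genes 8 have a 3′ UTR in the annotation and 2 of them, Gpam and Itpr1, match miR-224-5p; of the 10 leading lower genes 1, Fam189a2, matches miR-452-5p. The sites of Gpam and Fam189a2 are printed because, between the inhibitors, these genes lie on the side that inhibition of the matching microRNA would give. Against the shared scramblemiR controls, the deposited log2 ratio of Gpam was -0.50 for antimiR-224 and -1.23 for antimiR-452. For Itpr1 it was -0.22 and -1.03, so antimiR-224 raised the mean of neither gene above the controls. For Fam189a2 it was -0.32 for antimiR-224 and 0.68 for antimiR-452. The shares of leading genes with a match, 25% and 10%, stand beside 15.2% and 10.5% of all genes. Capitals mark the match to the seed, 5′ to 3′ on the message's strand as DNA.
Gpam, miR-224-5p: aaagcactgtGTGACTTtgtgaaggac
Fam189a2, miR-452-5p: ccttcatgctTGCAAACtagaagacag
Genes reported as miR-224 targets were a list of 9 tested genes, 4 higher and 5 lower, with a median of -0.01. Cdc42, a small GTPase, was at 5125, 4401, 5027 and 4264 against 5574, 4051, 4930 and 4515, a difference of -0.01 ± 0.22. Pebp1, an inhibitor of Raf kinase, was at 2019, 1596, 2716 and 1710 against 1431, 2018, 3855 and 2196 (-0.18), with the highest values in library 3 of both groups.

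The leading genes of brown fat were also compared in white fat. Zfp36l2 differed by 0.11 in white fat against 1.38 in brown, with an interaction of 1.27 ± 0.49. Itpr1 differed by -0.11 against 0.88. Gm11295 was near the floor in white fat, at 0 to 12 counts per inhibitor library, so its white fat value of -0.79 rests on a few counts. Slc7a10 and Cdsn were lower under antimiR-224 in both depots, by -0.42 and -0.55 in white fat. Slc7a10 was at 3042 to 4897 under antimiR-224 and at 4483 to 8077 under antimiR-452 in white fat, and in neither depot did it pass the adjusted threshold. These 20 genes were chosen for their brown fat values, which are given as a description. No interaction passed the adjusted threshold, and a difference between depots was not shown for any gene.

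**Figure D5:**
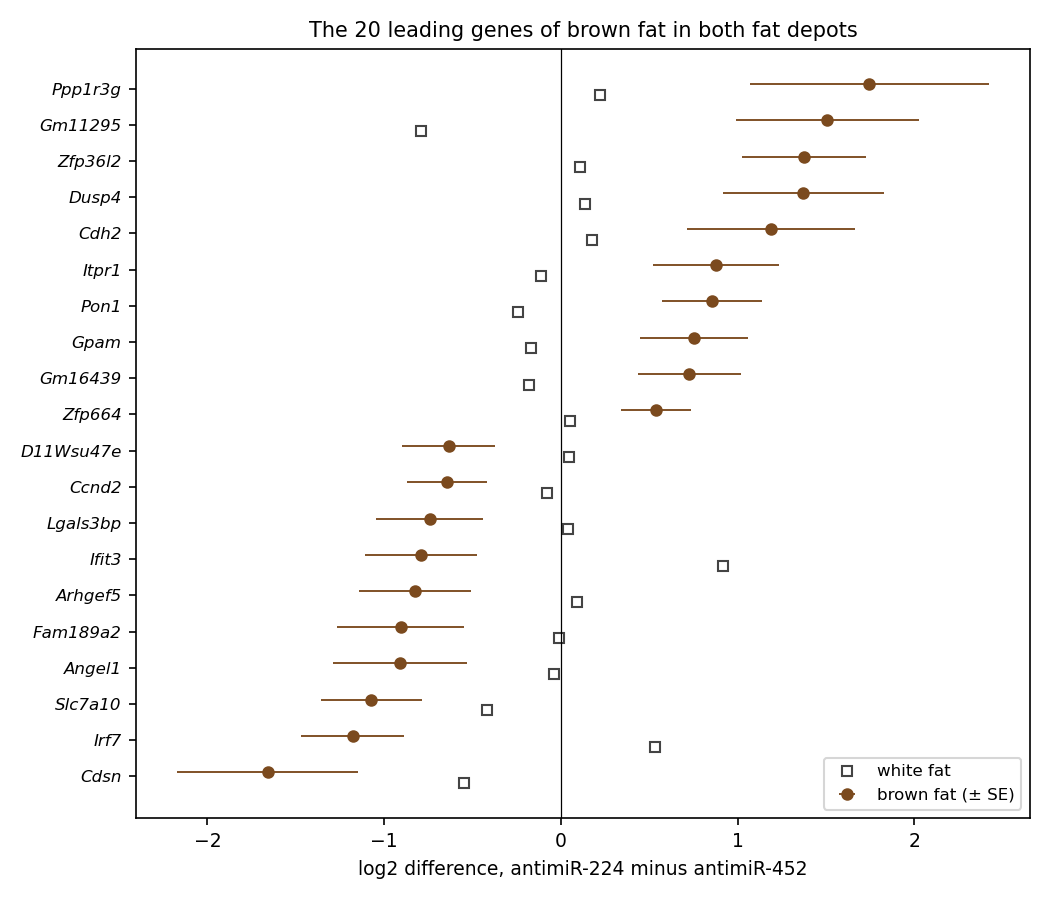
Log2 difference, antimiR-224 minus antimiR-452, of the 20 leading genes in brown fat (filled circles, lines are ± 1 SE) and in white fat (open squares). Irf7 and Ifit3 lie left of 0 in brown fat and right of it in white fat, and Zfp36l2 lies at 1.38 and 0.11.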

How the data were processed

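Trizol extraction, oligo-dT selection and a directional library kit are recorded per the labels' protocols. The authors worked with R 2.15.3, DESeq 1.10.1 and the build GRCm38.p4, per the submitters' processing notes; for the aligner, counter and annotation nothing is given in these sources. Per the file headers, the authors deposited 4 tables, each with the mean signal of 2 groups (normalized counts averaged over 4 libraries). The deposited tables also hold the ratio of these means, its log2 and a p-value with its Benjamini-Hochberg adjustment, as the authors computed them with both brown fat tables sharing their controls. Tables were normalized separately, so antimiR-452 values were rescaled.

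Each mean is a weighted sum of 4 whole read numbers, with weights (size factors) solved from the tables themselves. Reads per library were solved from its digits and, where several solutions were left, from the deposited p-value by computing the authors' exact negative binomial test for each solution, an approach settled on after the files' format was seen, since the design allowed for deposited counts. In brown fat this recovered 99.1% (antimiR-224) and 98.9% (antimiR-452) of joined genes; recovered genes stop at a mean near 15246 and 22552. In simulated data 1 of 11165 and 1 of 11207 recovered genes were wrong. No 2 libraries of a group agreed within sampling noise (chi-square per degree of freedom at least 24.4).

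Differences were fitted with limma 3.58.1 in R 4.3.3 (trend and robust variance) on log2(normalized count + 1) of the 8 libraries, with Benjamini-Hochberg adjustment over all genes with a mean of at least 10. This scale understates changes of low genes. The fit was checked on simulated data, where it called 6 of 14087 unchanged genes. P-values set the difference between groups against the spread between these libraries. The labels do not say that libraries are separate animals, so the p-values may not speak to variation between animals. Gene positions are from GENCODE M21 (GRCm38), and 99.5% of identifiers had a symbol.

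Named genes were those past adjusted p 0.05 (none), the 10 smallest p in each direction with a mean of at least 50, the 5 highest and 5 lowest ratios of unrecovered genes, from each list up to 4 members with p under 0.05 or else the 2 highest means, and Ucp1, Gabre, Irs2, Slc2a4 and Cilp. The members and lists were chosen with earlier results of these data known. Alternatives were pseudocounts of 0.5 and 5, minimum means of 50 or none, no robust variance, other size factors, no rescaling, the controls in the fit, and each library left out.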

Additional observations from a re-analysis of the deposited data

Results flagged for a closer look

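Of 228 groups of 4 libraries examined for named genes and lists, 36 held a library set apart from the others. The gap of that library to its nearest, divided by the range of the 4, exceeded Dixon's critical value. For normally distributed values chance gives about 1 in 20 (5%). Counts are skewed and many of these genes were chosen for their values, so that rate is only a rough guide. Values below are normalized counts, or their geometric mean over a list, with the range of the other 3 libraries after "against". Library 1 of antimiR-452 accounts for 17 of the 36 and library 1 of antimiR-224 for 12.

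In library 1 of antimiR-224, high genes were Irf7 at 260 against 156 to 173, Ryr1 at 17029 against 85.1 to 403, Dbp at 2827 against 1681 to 1849, Ighm at 787 against 97.5 to 171, Cilp at 684 against 0 to 11.7 and Thbs4 at 363 against 0 to 9.33. The Irf7 value is the one nearest to antimiR-452. High lists there were creatine and calcium cycling at 1094 against 210 to 297, collagens at 1214 against 665 to 705, cartilage and tendon at 130 against 0.992 to 6.68, neuron and Schwann cell at 126 against 39.7 to 49.0, muscle genes with recovered reads at 2352 against 18.7 to 68.7 and slow fibre genes at 5941 against 3.39 to 23.8. Library 2 of antimiR-224 was high for the endothelial receptors Kdr at 9859 against 3709 to 4375 and Flt1 at 6729 against 3760 to 4130, and for fatty acid oxidation at 1094 against 713 to 734. Ccnd1, cyclin D1, was low in library 4 of antimiR-224 at 87.5 against 343 to 360.

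Library 1 of antimiR-452 was high for Arhgef5 at 303 against 200 to 212, Ryr1 at 85123 against 9.96 to 4271, Nr4a1 at 5928 against 604 to 1227, Nnat at 2023 against 75.9 to 193, Dpt at 4411 against 368 to 842, Cilp at 886 against 1.99 to 68.4 and Thbs4 at 291 against 1.99 to 10.3. Its high lists were the unfolded protein response at 994 against 695 to 744, TGF-beta signalling at 497 against 220 to 240, reported miR-224 targets at 474 against 236 to 276 and macrophage markers at 313 against 70.7 to 112. Mast cell markers were at 131 against 8.27 to 20.1, cartilage and tendon at 137 against 3.81 to 13.5, neuron and Schwann cell at 172 against 45.5 to 55.0, and muscle genes with recovered reads at 11455 against 2.67 to 604. The same library was low for thermogenic genes at 590 against 1534 to 1611 and for triglyceride assembly at 718 against 1321 to 1388. Library 3 of antimiR-452 was high for Hba-a1, an alpha globin gene with a near-identical copy, at 12568 against 450 to 1418, for erythroid markers at 2056 against 104 to 228 and for adipokines at 863 against 495 to 553.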

How the results depend on the processing

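No paired analysis was possible because the recovered libraries carry no replicate number that ties them to a sample title. No gene passed an adjusted p of 0.05 in limma in any planned setting, and the count at an unadjusted p under 0.05 ran from 19 to 194 with 1 library left out. Leaving out library 1 of both groups and library 3 of antimiR-452, chosen after seeing the data, gave 1 call, Mylk4. The counts of genes at least 2-fold higher and lower by group means moved from 76 and 868 to 24 and 575 at a minimum mean of 50, 1638 and 3031 with no minimum, 172 and 435 without library 1 of both groups, and 158 and 482 without library 3 of antimiR-452 in addition. Of 72 tested named genes, 41 kept their sign in every planned setting. Reads of 273 mostly abundant genes were not recovered, which leaves genes such as Ucp1 with no error.

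The log2 difference changed sign with a pseudocount of 5 for Ptprc at -0.0118. It changed sign without library 1 of both groups for Insig1 at -0.42, Tef at -0.00325, Klf6 at 0.055, Mt1 at -0.349, Mrpl12 at -0.187, Mrps7 at -0.26, Tnrc6a at 0.049, Tnrc6b at 0.23, Cdc42 at 0.0218, Hdc at -0.211, Kdr at -0.0646, Flt1 at -0.112, Dpt at 0.225, Lrrn4 at -0.376, Rsph1 at 0.103 and Gabre at 0.157. Without library 3 of antimiR-452 in addition it did so for Insig1 at -0.297, Dbp at 0.236, Tnrc6b at 0.0124, Cdc42 at 0.0901, Lep at 0.0281, C1qb at 0.157, Ptprc at -0.368, Kdr at -0.00253, Flt1 at -0.163, Dpt at 0.54, Lrrn4 at -0.498 and Rsph1 at 0.643. With 1 library left out at a time, the log2 difference of 31 genes ranged over both signs: Ryr1 -3.72 to 0.592, Insig1 -0.397 to 0.475, Tef -0.0726 to 0.088, Dbp -0.56 to 0.155, Nr4a1 -0.0769 to 1.02, Mt1 -0.383 to 0.61, Hspa5 -0.0474 to 0.299, Hspa8 -0.392 to 0.0647, Bmpr2 -0.523 to 0.539, Ccnd1 -0.181 to 0.7, Mrpl12 -0.172 to 0.453, Mrps7 -0.215 to 0.341, Tnrc6a -0.468 to 0.0294, Tnrc6b -0.365 to 0.164, Cdc42 -0.0889 to 0.0645, Pebp1 -0.389 to 0.0876, Lep -1.35 to 0.107, Lyz2 -0.243 to 0.593, C1qb -0.441 to 0.325, Ighm -0.141 to 1.01, Ptprc -0.694 to 0.473, Hdc -0.197 to 0.534, Kdr -0.125 to 0.854, Flt1 -0.203 to 0.4, Rgs5 -0.0553 to 0.784, Dpt -0.642 to 0.551, Lrrn4 -0.3 to 0.686, Rsph1 -1.1 to 0.257, Odf2 -0.137 to 0.126, Tssk1 -0.106 to 0.913 and Thbs4 -2.39 to 0.843. The cause was not tested.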
